A study of Mus musculus with 12 samples.

Results

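A set of 10 genes of the transforming growth factor beta (TGF-β) system were followed in mouse CD4+ T cells: the ligand genes *Tgfb1*, *Tgfb2* and *Tgfb3*, the receptor genes *Tgfbr1*, *Tgfbr2* and *Tgfbr3*, the signal transducers *Smad2* and *Smad3*, and the feedback inhibitors *Smad7* and *Skil*. They were chosen by gene symbol, 10 of the 45777 genes in the deposited table, and all 10 were among the 23585 genes tested, those with counts in 3 or more libraries. The data were 12 RNA-seq libraries of cultured splenic CD4+ T cells, labelled as coming from wild type Balb/c mice aged 7 weeks, whereas the methods of the study name B6 mice for the RNA sequencing and give an older age for its mice. All 4 groups carried the same stimulus, 0.5 ug/mL anti-CD3 antibody for 3 days, which triggers the T-cell receptor. The anti-CD3 group received nothing else, and the others received *L. acidophilus* (a probiotic bacterium), FK506 (tacrolimus, a calcineurin inhibitor) or the combination of both, with 3 libraries in each group. No group without anti-CD3 is among them, and the labels give no dose of *L. acidophilus* or FK506 and do not say whether the libraries of a group came from separate animals or cultures, so the p-values measure the spread between these libraries, which may be technical.

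TGF-β is made as a latent precursor that stays bound to its propeptide until integrins or proteases release it. The released ligand is held by the co-receptor betaglycan (*Tgfbr3*) or binds the type II receptor (*Tgfbr2*) directly, and the type II receptor then phosphorylates the type I receptor (*Tgfbr1*), which phosphorylates Smad2 and Smad3. In CD4+ T cells this signal favours regulatory T (Treg) cells and, together with inflammatory cytokines, Th17 cells, and *Smad7* and *Skil* are themselves induced by it and limit it.

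The libraries held 45416397 to 64658165 counts, and replicate 1 was the deepest library of each group. Over all genes, replicate 1 also stood apart from replicates 2 and 3 with *L. acidophilus* (chi-square per degree of freedom 60.2 and 59.5, against 9.57 between replicates 2 and 3) and with the combination (78.7 and 86.8, against 4.61). With anti-CD3 alone the values were the largest of the 4 groups, and replicate 2 stood apart (205 and 180, against 100 between replicates 1 and 3). With FK506 all 3 pairs differed to a like degree (47.8, 62.5 and 47.7). Several results that turn on replicate 1 are given with and without it. T-cell marker genes were abundant in every library, with a summed FPKM (fragments per kilobase of transcript, scaled to library size) of 10 markers between 1520 and 2420, and none of the 10 was called in any comparison between groups. Genes that mark other cells moved with the treatments. The summed FPKM of 12 B-cell markers ranged over 39.9 to 66.9 (anti-CD3 alone), 26.5 to 38.4 (*L. acidophilus*), 243 to 497 (FK506) and 148 to 174 (combination), and 11 of them were called higher with FK506 and 7 with the combination against anti-CD3 alone. The sum of 12 myeloid markers was 2.71 to 4.30, 3.82 to 8.18, 8.33 to 22.4 and 58.0 to 85.5 in the same order of groups, with 7 of the 9 tested called higher in the combination, 6 of the 12 at 0 counts in all libraries of anti-CD3 alone, and *S100a8* at 0 in all 12 libraries. Sums of 8 platelet markers (0.303 to 4.09 over all libraries, with 2 of 5 tested called higher in the combination), 10 stroma and endothelium markers (4.55 to 28.8, 4 of 9) and 6 CD8 T and NK cell markers (2.29 to 10.0, 2 of 5) were low beside the T-cell sum in every group, and *Col3a1* and *Klra8* were at 0 in all 12 libraries. The stroma and endothelium sum was 4.55 to 8.55 with anti-CD3 alone, 16.6 to 25 with FK506 and 25.5 to 28.8 with the combination. *Pecam1* made up most of it, averaging 5.55, 20.4 and 25.9 FPKM in these groups. The platelet sum was 0.303 to 0.685 with anti-CD3 alone and 2.44 to 4.09 with the combination. Of 8 Treg markers, 6 were called higher in the combination and 1 lower. With FK506 alone 6 of 8 Treg, 6 of 9 myeloid, 3 of 5 CD8 T and NK cell, 2 of 9 stroma and endothelium and 0 of 5 platelet markers were called higher. What part these shifts had in the results below was not tested, and in bulk RNA fewer cells of a type and less RNA per cell cannot be told apart.

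The most abundant ligand, *Tgfb1*, did not pass the edgeR test in any comparison, and the scarce ligand *Tgfb3*, the receptors and the inhibitors changed in some. With the combination, *Tgfbr1*, *Tgfbr2*, *Smad7* and *Skil* were higher and *Tgfb3* and *Tgfbr3* lower than with anti-CD3 alone, so that 6 of the 10 genes were called, that is, had an adjusted p under 0.05 in edgeR's quasi-likelihood test and changed at least 2-fold. Across all genes tested 24.6% were called in that comparison. With FK506 alone 3 of the 10 were called (*Tgfbr1* and *Tgfbr2* higher, *Tgfb3* lower), against 10.6% of all genes. With *L. acidophilus* alone edgeR and DESeq2 each called 0 of the 10, while edgeR called 0.187% of all genes. At an unadjusted p under 0.05 in edgeR there were 3 of the 10 (*Tgfbr1*, *Smad2* and *Skil*), against 14.8% of all genes. The median log2 fold change of the 10 genes was 0.07 with *L. acidophilus*, 0.47 with FK506 and 0.17 with the combination, against medians within 0.03 of 0 over all genes tested. These comparisons share the anti-CD3 libraries. Without TMM scaling the median of all genes moved by 0.21 in the combination against anti-CD3 alone and by 0.13 in the combination against *L. acidophilus*, and the fold changes given here are relative to that median.

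**Figure D1:**
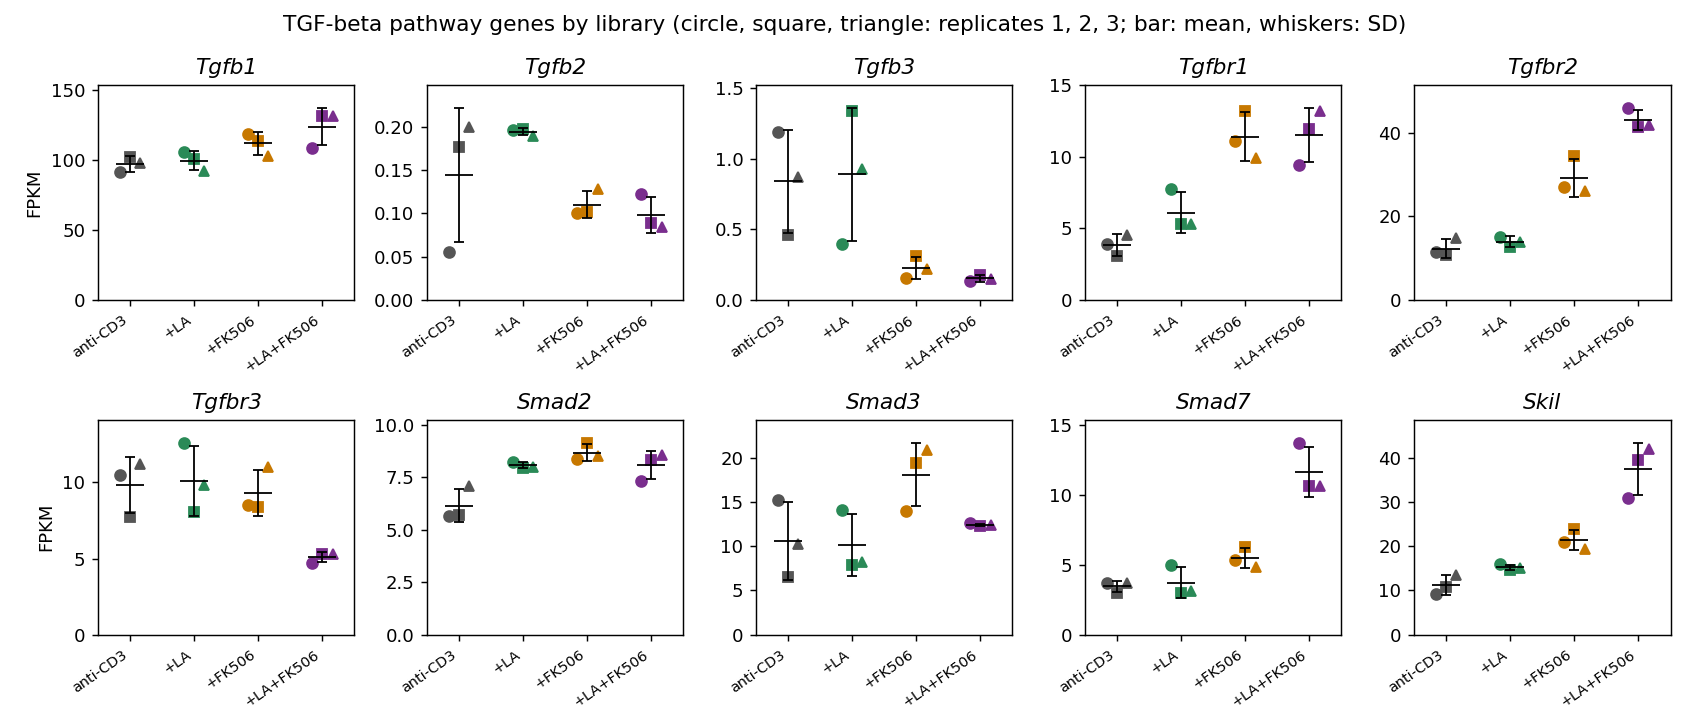
FPKM of each of the 10 genes (vertical axis) in the 12 libraries by group, with replicates 1, 2 and 3 as circle, square and triangle, the mean as a bar and the SD as whiskers (n = 3). *Tgfbr2*, *Smad7* and *Skil* have their 3 highest libraries in the combination, and *Tgfbr3* its 3 lowest.

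**Figure D2:**
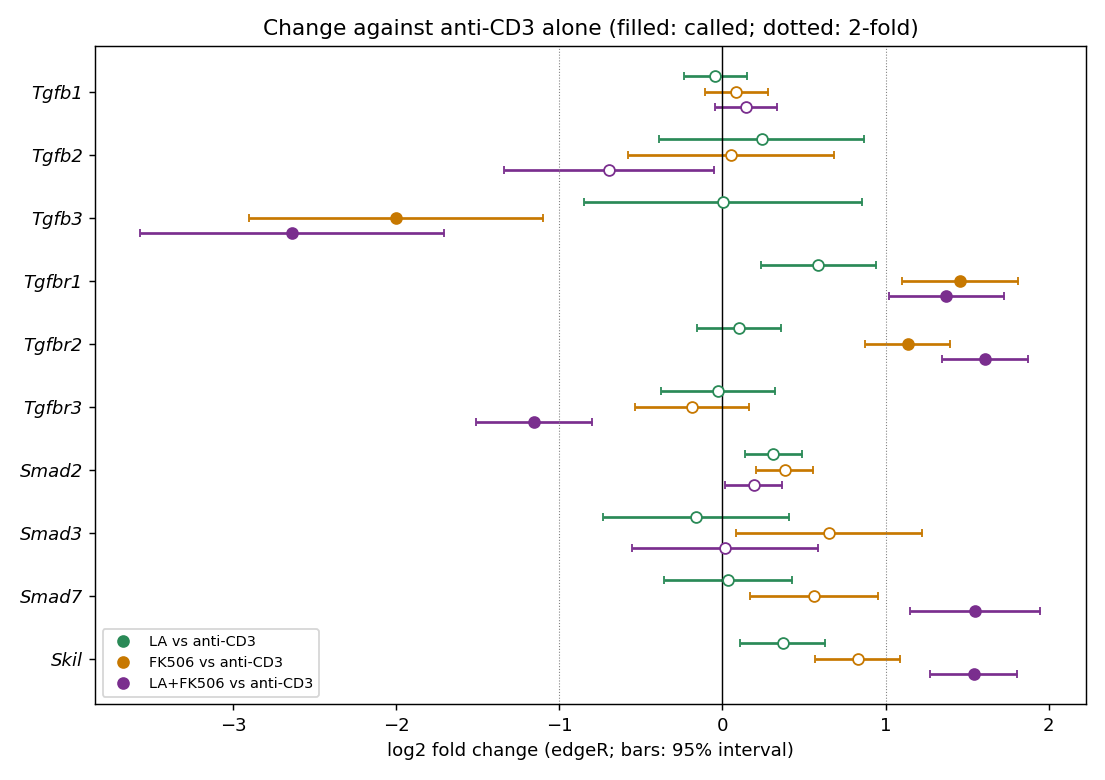
Log2 fold change of each gene against anti-CD3 alone with approximate 95% intervals, for *L. acidophilus*, FK506 and the combination. The intervals were drawn from the SE and the normal distribution and are narrower than the edgeR test implies. In the combination the bars of *Tgfb2* and *Smad2* exclude no change, although neither gene passed that test. Filled points were called, dotted lines mark 2-fold, and all filled points lie in the FK506 and combination groups.

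Of the ligands, *Tgfb1* (gene ID 21803; GRCm38 chromosome 7, 25687002 to 25705077), the isoform that lymphocytes mainly make, supplied nearly all transcripts. Its FPKM was 91.3, 102 and 98.0 with anti-CD3 alone, 106, 101 and 92.6 with *L. acidophilus*, 119, 114 and 103 with FK506 and 109, 132 and 132 with the combination. The ranges of neighbouring groups overlapped, and although every library with FK506, alone or in combination, was above every library with anti-CD3 alone, the log2 fold change of the combination was 0.14 (SE 0.10, adjusted p = 0.258 in edgeR). Without TMM factors it was 0.36 (adjusted p = 0.0144), and 0.32 against *L. acidophilus* (adjusted p = 0.0298), and limma on FPKM also put both under 0.05, all below 2-fold. *Tgfb1* made up 98.5% to 99.8% of the summed FPKM of the 3 ligands in each library.

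*Tgfb3* (gene ID 21809; chromosome 12, 86056743 to 86079041) encodes a ligand that pathogenic Th17 cells are known to produce, and its transcript was scarce and fell with FK506. Its FPKM was 1.19, 0.459 and 0.870 with anti-CD3 alone and 0.399, 1.34 and 0.931 with *L. acidophilus*. With FK506 it was 0.153, 0.308 and 0.219, and with the combination 0.134, 0.177 and 0.145, at 28 to 297 counts per library over the series. All 6 libraries with FK506 lay below all 6 without it. Against anti-CD3 alone the log2 fold change was -2.00 with FK506 (SE 0.46, adjusted p = 0.0109) and -2.64 with the combination (SE 0.48, adjusted p = 0.000886), and between the FK506 and combination groups it was -0.64 (adjusted p = 0.387 in edgeR). On the log2(FPKM + 1) scale, where a gene below 1 FPKM can show little change, the fall was 0.57 with FK506 (adjusted p = 0.0583 in limma).

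*Tgfb2* (gene ID 21808; chromosome 1, 186622787 to 186709697) was close to the detection limit, with 24 to 89 counts per library. Its FPKM was 0.0552, 0.177 and 0.199 with anti-CD3 alone, between 0.189 and 0.197 with *L. acidophilus*, between 0.1 and 0.128 with FK506 and between 0.0839 and 0.122 with the combination. The combination was lower than *L. acidophilus* (log2 fold change -0.94, SE 0.33, adjusted p = 0.0444 in edgeR), less than 2-fold, and no other comparison of *Tgfb2* passed the test. Without replicate 1 in all groups, chosen after its values were seen, the combination was lower than anti-CD3 alone, by 1.03 on the log2 scale (adjusted p = 0.0327), and no longer passed against *L. acidophilus* (-0.89, adjusted p = 0.0649).

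The 3 receptors did not move together. *Tgfbr1* and *Tgfbr2*, which form the signalling complex, rose with FK506 whether *L. acidophilus* was present or not, while the co-receptor *Tgfbr3* was lower in the combination than in each other group. The promoter windows of the pair that rose are shown because a Smad-binding motif can be looked for in them. RefSeq (GRCm38.p6) gave windows of 250 bases before to 50 bases after a start for 5 of the 10 genes, 6 windows in all. The motif searched was CAGAC on both strands (GTCTG on the other), which does not overlap a further motif here, and matches are in capitals. The *Tgfbr2* window lies at chr9:116175314-116175613 on the minus strand, and the *Tgfbr1* windows of its 2 starts at chr4:47352972-47353271 and chr4:47385966-47386265 on the plus strand.
Tgfbr2: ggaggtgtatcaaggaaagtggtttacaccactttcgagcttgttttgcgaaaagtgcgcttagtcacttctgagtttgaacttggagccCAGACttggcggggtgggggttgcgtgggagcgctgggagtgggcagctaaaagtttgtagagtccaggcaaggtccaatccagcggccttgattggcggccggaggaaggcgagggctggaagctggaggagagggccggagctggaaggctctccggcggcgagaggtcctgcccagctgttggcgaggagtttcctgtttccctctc
Tgfbr1, upstream start: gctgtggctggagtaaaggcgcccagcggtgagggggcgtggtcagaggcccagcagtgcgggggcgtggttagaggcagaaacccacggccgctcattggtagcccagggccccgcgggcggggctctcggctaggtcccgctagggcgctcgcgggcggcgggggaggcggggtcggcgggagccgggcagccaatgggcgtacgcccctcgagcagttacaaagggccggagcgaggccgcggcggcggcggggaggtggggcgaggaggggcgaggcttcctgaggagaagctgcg
Tgfbr1, downstream start: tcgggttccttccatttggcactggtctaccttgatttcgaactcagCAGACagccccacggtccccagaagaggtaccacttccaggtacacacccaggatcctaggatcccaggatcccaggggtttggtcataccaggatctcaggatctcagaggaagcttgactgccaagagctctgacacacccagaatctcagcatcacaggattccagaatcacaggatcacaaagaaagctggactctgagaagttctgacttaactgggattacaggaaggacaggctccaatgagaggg
The match lies 160 bases before the start in *Tgfbr2* and 203 bases before the downstream start in *Tgfbr1*, and the window of the upstream *Tgfbr1* start holds none of these letters. *Tgfb2* held matches as well, so that 3 of the 6 windows had the motif. Of all 32851 promoter windows of that length 49.6% hold it, and 0.213% hold the palindrome GTCTAGAC, which was in none of the 6.

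*Tgfbr1* (gene ID 21812; chromosome 4, 47353222 to 47414926), the type I receptor kinase, had an FPKM of 3.90, 3.07 and 4.55 with anti-CD3 alone and 7.72, 5.27 and 5.28 with *L. acidophilus*. It was 11.1, 13.2 and 9.89 with FK506 and 9.42, 11.9 and 13.2 with the combination. The 4 groups thus formed 3 steps that did not overlap, with the FK506 and combination groups sharing the top. Against anti-CD3 alone the log2 fold change was 1.46 with FK506 (SE 0.18, adjusted p = 0.000413) and 1.37 with the combination (SE 0.18, adjusted p = 0.000111). With *L. acidophilus* it was 0.59 (SE 0.18) and missed the threshold (adjusted p = 0.164 in edgeR), although the groups did not overlap. Adding *L. acidophilus* to FK506 gave -0.08 (adjusted p = 0.802), a difference near 0 whose sign turned to 0.02 without TMM scaling.

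*Tgfbr2* (gene ID 21813; chromosome 9, 116087695 to 116175363), the ligand-binding type II receptor, was the most abundant receptor transcript in each group. Its FPKM was 11.4, 10.7 and 14.9 with anti-CD3 alone and 15.2, 12.6 and 13.9 with *L. acidophilus*, which overlapped. It was 27.0, 34.5 and 26.1 with FK506 and 46.0, 41.5 and 41.8 with the combination, 2 further steps without overlap. The log2 fold change against anti-CD3 alone was 1.14 with FK506 (SE 0.13, adjusted p = 0.000293) and 1.61 with the combination (SE 0.13, adjusted p = 9.42e-06). The combination exceeded FK506 by 0.48 (SE 0.13, adjusted p = 0.0262 in edgeR), less than 2-fold, and without replicate 1 in all groups by 0.34 (adjusted p = 0.181).

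*Tgfbr3* (gene ID 21814; chromosome 5, 107106567 to 107289629), betaglycan, went the other way. Its FPKM was 10.5, 7.73 and 11.2 with anti-CD3 alone, 12.6, 8.06 and 9.80 with *L. acidophilus* and 8.48, 8.41 and 11.0 with FK506, and these 3 groups overlapped. With the combination it was 4.69, 5.27 and 5.27, below every other library. The log2 fold change of the combination was -1.16 against anti-CD3 alone (SE 0.18, adjusted p = 0.000339), -1.13 against *L. acidophilus* (adjusted p = 0.000662) and -0.97 against FK506 (SE 0.18, adjusted p = 0.0038). Without replicate 1 in all groups the change against FK506 was -1.01 (adjusted p = 0.0147 in edgeR) and called. FK506 alone gave -0.19 (adjusted p = 0.508 in edgeR). The change against anti-CD3 alone was under 2-fold without TMM scaling (-0.95) and in limma with pseudocounts of 1 and 0.1 (-0.82 and -0.92). Its adjusted p stayed under 0.05 in every alternative.

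The make-up of the receptor transcripts shifted accordingly. *Tgfbr3* made up 40.7%, 36.0% and 36.6% of the summed receptor FPKM with anti-CD3 alone and 35.4%, 31.1% and 33.8% with *L. acidophilus*. With FK506 its share was 18.2%, 15.0% and 23.4%, and with the combination 7.81%, 8.98% and 8.74%. The shares with anti-CD3 alone and *L. acidophilus* adjoin, and those with FK506 and the combination lie apart from them and from each other. The share of *Tgfbr2* was on average 47.5% with anti-CD3 alone and 72.2% with the combination, while the summed receptor FPKM was 26.0 ± 4.59 and 59.7 ± 0.869 (SD, n = 3). These shares are given as a description, without a test.

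**Figure D3:**
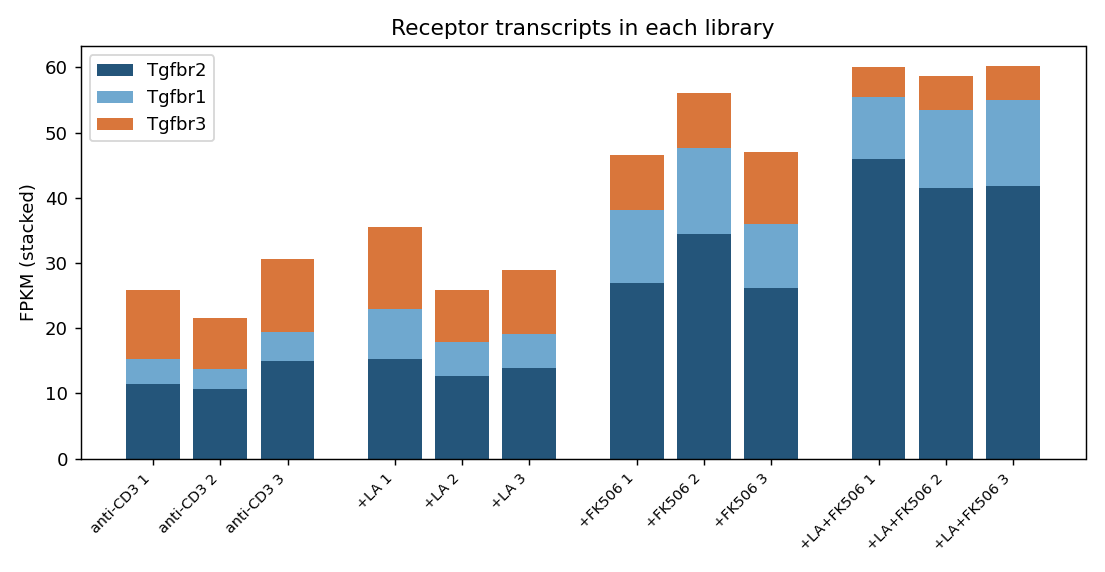
Stacked FPKM of *Tgfbr2*, *Tgfbr1* and *Tgfbr3* (vertical axis) in each of the 12 libraries. The summed FPKM averages 26.0 with anti-CD3 alone and 59.7 with the combination, while the *Tgfbr3* segment takes 37.8% and 8.51% of it.

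None of the comparisons between groups called *Smad2* or *Smad3*, the receptor-activated Smads. *Smad2* (gene ID 17126) had an FPKM of 5.66, 5.71 and 7.08 with anti-CD3 alone, 8.22, 7.96 and 7.99 with *L. acidophilus*, 8.35, 9.14 and 8.51 with FK506 and 7.34, 8.34 and 8.57 with the combination. All libraries of the 3 treated groups were above those of anti-CD3 alone, but in the edgeR fit only FK506 passed the threshold on p, with a log2 fold change of 0.38 (SE 0.09, adjusted p = 0.0115), against 0.31 with *L. acidophilus* (adjusted p = 0.141) and 0.19 with the combination (adjusted p = 0.1 in edgeR). These calls depend on the setting: without TMM factors the combination gave 0.40 (adjusted p = 0.00867), DESeq2 gave an adjusted p of 0.0209 for *L. acidophilus*, and the 6 libraries alone 0.0703 for FK506.

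*Smad3* (gene ID 17127; chromosome 9, 63646766 to 63757994), whose DNA binding drives many TGF-β targets, varied widely between libraries of a group. Its FPKM was 15.2, 6.49 and 10.2 with anti-CD3 alone and 14.1, 7.91 and 8.21 with *L. acidophilus*, replicate 1 being the highest in both. With FK506 it was 14.0, 19.4 and 20.9, replicate 1 being the lowest, and with the combination it was 12.6, 12.3 and 12.4. No comparison of *Smad3* passed the test, and FK506 against anti-CD3 alone gave 0.65 (SE 0.29, adjusted p = 0.141 in edgeR). These results depend on replicate 1 and on the setting. Without the replicate 1 library of anti-CD3 alone the log2 fold change was 1.03 (adjusted p = 0.0251), and without replicate 1 in all groups 1.19 (adjusted p = 0.00462). FK506 against *L. acidophilus* likewise gave 0.82 (adjusted p = 0.122), 1.13 without the replicate 1 library of *L. acidophilus* (adjusted p = 0.0364) and 1.30 without replicate 1 in all groups (adjusted p = 0.0044). In that last setting the combination was lower than FK506, by 0.83 on the log2 scale (adjusted p = 0.0169). With all replicates kept, the lowest adjusted p among the alternatives was under 0.05 for the combination against FK506 and for FK506 against *L. acidophilus*, and the highest was above it.

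Both inhibitors were highest in the combination. *Smad7* (gene ID 17131), which competes for the receptor complex and recruits ubiquitin ligases to it, had an FPKM of 3.68, 2.95 and 3.69 with anti-CD3 alone and 4.98, 2.97 and 3.15 with *L. acidophilus*. It was 5.36, 6.23 and 4.83 with FK506 and 13.7, 10.6 and 10.6 with the combination. Only the combination stood clear of all other libraries. Its log2 fold change was 1.55 against anti-CD3 alone (SE 0.20, adjusted p = 0.000106), 1.52 against *L. acidophilus* (adjusted p = 0.000227) and 0.99 against FK506 (SE 0.20, adjusted p = 0.00584 in edgeR), the last just short of 2-fold. FK506 alone gave 0.56 (adjusted p = 0.0717). In edgeR it passed on p with the replicate number as a block (0.57, adjusted p = 0.0349) and without replicate 1 in all groups (0.66, adjusted p = 0.0224), both under 2-fold. With libraries left out its adjusted p in edgeR went up to 0.219.

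*Skil* (gene ID 20482; chromosome 3, 31095058 to 31122923) encodes SnoN, a repressor that binds Smad complexes on DNA. Its FPKM was 9.29, 10.7 and 13.6 with anti-CD3 alone, 15.9, 14.7 and 15.0 with *L. acidophilus*, 21, 24 and 19.3 with FK506 and 30.8, 39.6 and 42 with the combination. The 4 groups were ordered without any overlap. Against anti-CD3 alone the log2 fold change was 0.37 with *L. acidophilus* (SE 0.13, adjusted p = 0.224), 0.83 with FK506 (SE 0.13, adjusted p = 0.00162) and 1.54 with the combination (SE 0.14, adjusted p = 1.14e-05). The combination exceeded FK506 by 0.71 (SE 0.13, adjusted p = 0.00387 in edgeR). The ratio of the summed FPKM of *Smad7* and *Skil* to that of *Smad2* and *Smad3* was 0.912 ± 0.260 with anti-CD3 alone, 1.05 ± 0.105 with *L. acidophilus*, 1.02 ± 0.180 with FK506 and 2.39 ± 0.142 with the combination (SD, n = 3), and the lowest library of the combination, at 2.23, was above the highest of the others, at 1.18.

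Whether *L. acidophilus* added to FK506 was asked by comparing the combination with FK506 alone. edgeR called 0 of the 10 genes, against 7.44% of all genes, and DESeq2 called 1, *Smad7*. At an unadjusted p under 0.05 in edgeR there were 6 of the 10, against 32.8% of all genes. Leaving out single libraries gave 0 to 2 called, the 2 being *Smad7* (1.09, adjusted p = 0.0107) and *Tgfbr3* (-1.05, adjusted p = 0.00612) without replicate 2 of FK506. Without the fold cut-off 4 of the 10 passed (*Smad7*, *Skil* and *Tgfbr2* higher, *Tgfbr3* lower), against 19.1% of all genes. The interaction term, which asks whether the combination differs from both treatments added up and was called on an adjusted p under 0.05 at any fold, was called for 1 of the 10 genes, *Smad2* (-0.50, SE 0.13, adjusted p = 0.046), against 4.35% of all genes, and that call was lost in 16 of 21 alternatives. It was -0.94 for *Tgfbr3* (adjusted p = 0.0587) and 0.95 for *Smad7* (adjusted p = 0.0816), which passed with the replicate number as a block (adjusted p = 0.0389 and 0.0405). Without replicate 1 in all groups neither passed (adjusted p = 0.135 and 0.0606 in edgeR). In the main fit the rest of the genes had adjusted p-values between 0.163 and 0.757. A larger change in one setting than in the other was therefore not shown for *Tgfbr2* (0.37, adjusted p = 0.298) or *Skil* (0.34, adjusted p = 0.35).

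**Figure D4:**
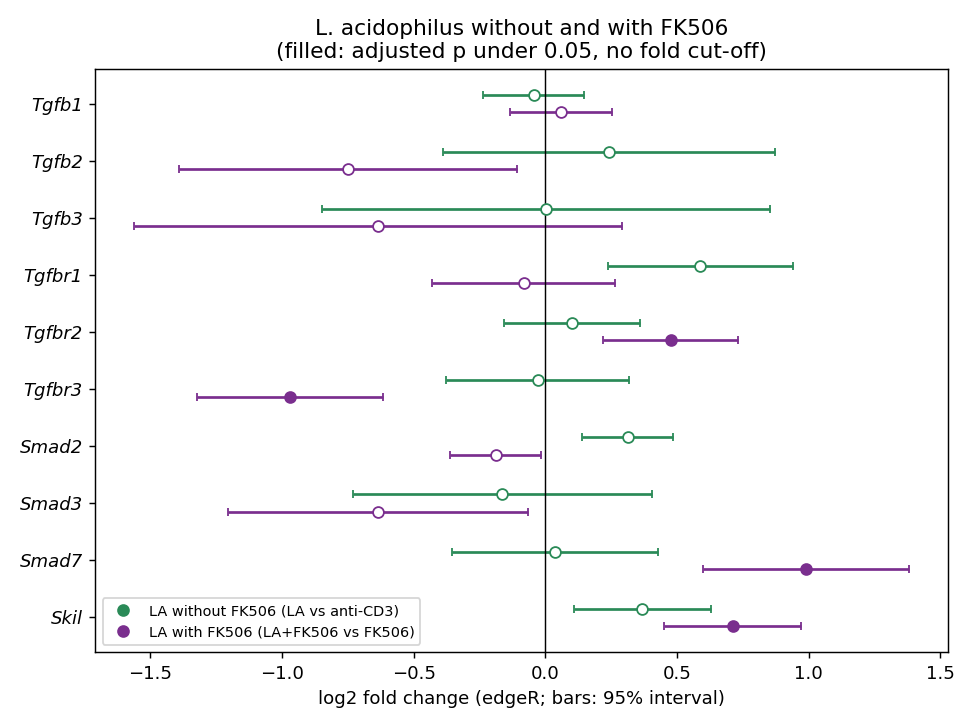
Log2 fold change for *L. acidophilus* without FK506 (against anti-CD3 alone) and with FK506 (combination against FK506), with approximate 95% intervals. These were drawn from the SE and the normal distribution and are narrower than the edgeR test implies, so a bar that excludes no change is not a passed test. Filled points, at an adjusted p under 0.05 and any fold, were *Tgfbr2*, *Tgfbr3*, *Smad7* and *Skil*, all with FK506.

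Against *L. acidophilus* alone, the combination had 5 of the 10 genes called, with 16.6% of all genes called. *Tgfbr2* (1.51, adjusted p = 3.86e-05), *Smad7* and *Skil* (1.17, adjusted p = 0.000101) were higher, and *Tgfb3* (-2.64, adjusted p = 0.00136) and *Tgfbr3* lower. *Tgfbr3* missed 2-fold in 5 alternatives, without TMM factors (-0.99), in limma with either pseudocount (-0.86 and -0.96), without the replicate 1 library of *L. acidophilus* (-0.94) and without replicate 1 in all groups (-0.91). *Tgfbr1* was higher by 0.78 (adjusted p = 0.00543 in edgeR), under 2-fold. Without replicate 1 in all groups it was higher by 1.10 (adjusted p = 0.00337 in edgeR) and called. FK506 against *L. acidophilus* gave 2 of the 10, with 4.99% of all genes called: *Tgfbr2* (1.03, adjusted p = 0.000817) and *Tgfb3* (-2.00, adjusted p = 0.0207). That count ranged from 0, without replicate 2 of *L. acidophilus*, to 4, without its replicate 1, and the call of *Tgfb3* was lost when any of replicates 2 and 3 of *L. acidophilus* or replicates 1 and 3 of FK506 was left out (adjusted p up to 0.0989). *Tgfbr2* stayed under an adjusted p of 0.05 throughout but dropped below 2-fold without replicate 2 of either group (0.97 and 0.91).

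The wider pathway was described with 68 other genes in 5 lists, of which 64 were tested. In the combination against anti-CD3 alone 15 were called higher and 4 lower, 29.7% against 24.6% of all genes, and their median log2 fold change was 0.38 against 0.02. With FK506 alone 8 were higher and 4 lower (18.8% against 10.6%), with *L. acidophilus* alone edgeR called 0 of them, and between the combination and FK506 6 were higher and 1 lower (10.9% against 7.44%). The Treg markers above share *Foxp3*, *Nrp1*, *Itgb8* and *Lrrc32* with these lists.

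Among the genes that handle and activate the ligand, 2 of 10 were called higher and 1 lower in the combination, where 13.8% of all genes were called higher and 10.8% lower, and the list median was 0.46. *Lrrc32*, which encodes GARP, the anchor of latent TGF-β on Treg cells, had an FPKM of 3.00 ± 0.870 with anti-CD3 alone, 13.2 ± 3.31 with FK506 and 30.0 ± 1.57 with the combination (log2 fold change of the combination 3.11, adjusted p = 5.97e-05 in edgeR). *Itgb8*, a subunit of the integrin that releases TGF-β, rose by 3.41 (adjusted p = 0.000217). *Ltbp3*, which ties latent TGF-β to the matrix, fell by 2.37 (adjusted p = 0.000336), from 3.66 ± 2.02 to 0.815 ± 0.136 FPKM. *Lrrc32* also passed against FK506 (1.10, adjusted p = 0.0447).

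Of 12 other receptors and co-receptors, 3 were called higher and 0 lower, close to the 24.6% of all genes called, with a list median of 0.49. *Nrp1*, a co-receptor for TGF-β carried by many Treg cells, rose by 2.87 (adjusted p = 8.18e-06 in edgeR), and *Acvr2a*, an activin receptor, by 1.90 (adjusted p = 0.000149). *Cd109*, the other one, was nearly absent, at 0.241 FPKM in the combination. Of 11 other Smads and adaptors only *Crebbp*, which encodes the co-activator CBP, was called, rising by 1.17 (adjusted p = 6.32e-05), from 7.48 ± 1.72 to 19.2 ± 2.25 FPKM.

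Of 15 other negative regulators 4 were called higher and 0 lower in the combination, close to the 24.6% of all genes called, and the list median was 0.14. *Tgif1*, a transcriptional co-repressor of Smads, had an FPKM of 8.60, 12.8 and 11.5 with anti-CD3 alone and 32.4, 33.3 and 38.5 with the combination, which is 1.47 on the log2 scale (SE 0.13, adjusted p = 1.34e-05). Against FK506, where it was 14.3, 15.4 and 12.9, the change was 1.18 (adjusted p = 0.00025 in edgeR). *Ldlrad4*, which keeps Smads from the receptor, rose by 1.95 (adjusted p = 1.4e-05). *Smurf1*, a ubiquitin ligase that works with Smad7, rose by 1.33 (adjusted p = 2.98e-05), and *Nedd4l*, a ligase of the same family, by 1.38 (adjusted p = 0.00269) from a level below 1 FPKM.

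Among 16 target genes 5 were called higher and 3 lower, where 13.8% of all genes were called higher and 10.8% lower, and the list median was 0.13. *Cdkn2b*, a cell-cycle inhibitor, had an FPKM of 0.393, 0.173 and 0.427 with anti-CD3 alone and 6.47, 5.74 and 5.35 with the combination (log2 fold change 3.91, adjusted p = 0.000151 in edgeR). *Itgae*, which encodes the integrin chain CD103, rose by 3.70 (adjusted p = 0.00192), and *Foxp3*, the Treg transcription factor, by 4.11 (adjusted p = 3.23e-05). *Cdkn1a*, which encodes the cell-cycle inhibitor p21, fell by 1.85 (adjusted p = 3.57e-05), from 172 ± 40.3 to 55.3 ± 11.5 FPKM, and *Junb*, a subunit of the AP-1 transcription factor, fell by 1.54 (adjusted p = 3.63e-05), from 381 ± 91.0 to 151 ± 12.2 FPKM (SD, n = 3).

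**Figure D5:**
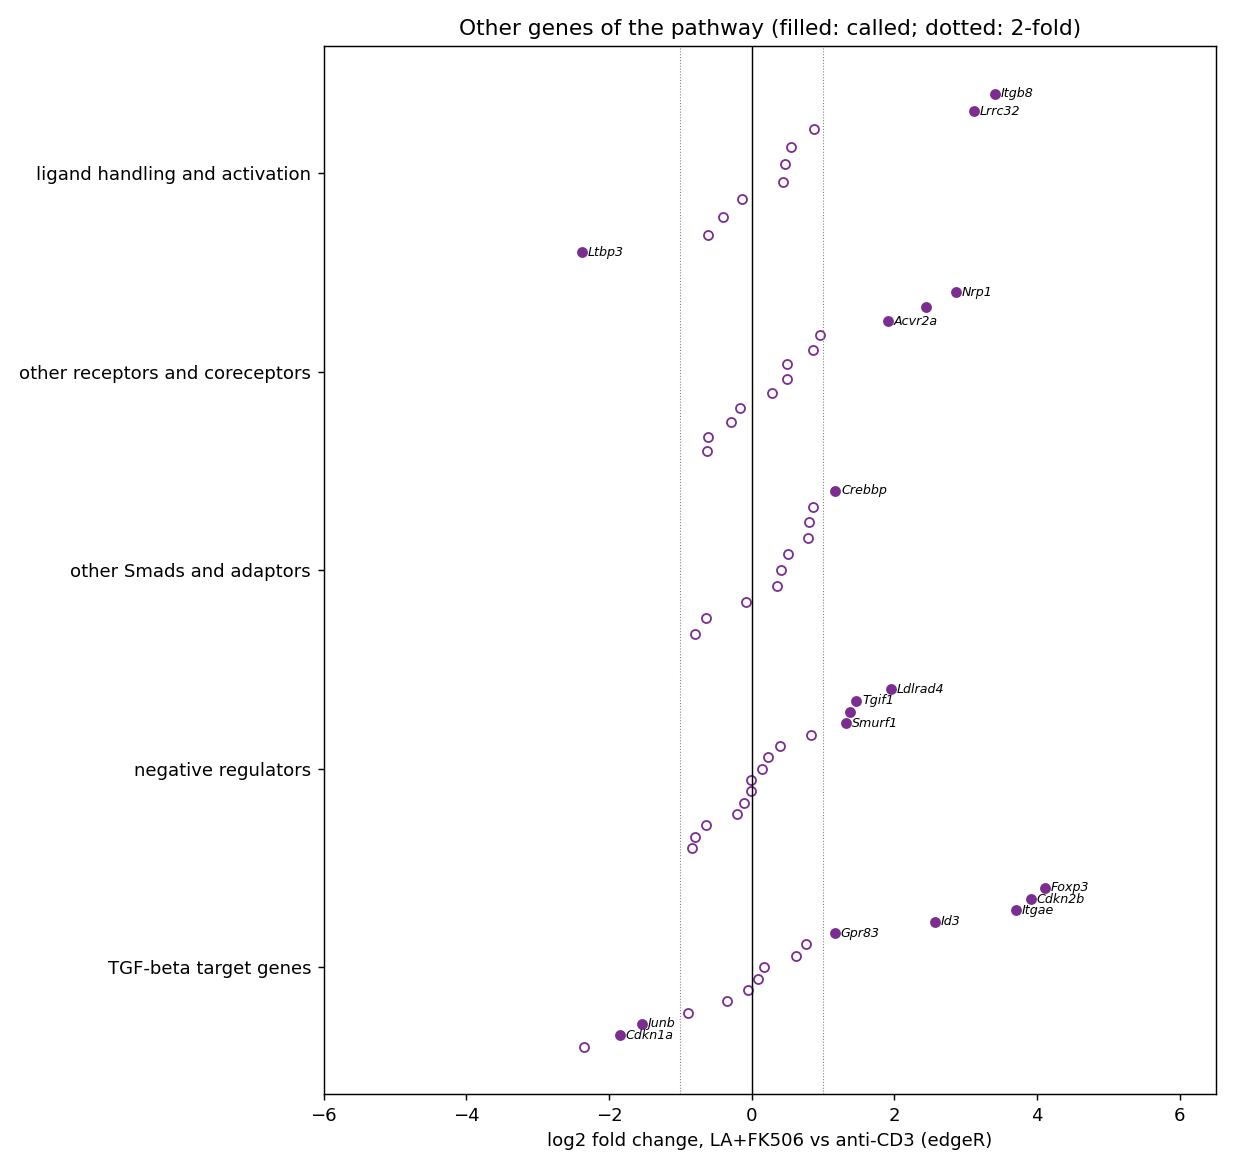
Log2 fold change in the combination against anti-CD3 alone for the tested genes of the 5 pathway lists, 1 point per gene, without 1 gene that was called lower and is not reported here. Filled points were called (15 higher and 3 lower, of the 15 and 4 counted above), names are given for called genes with a mean of at least 1 FPKM, and dotted lines mark 2-fold.

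Over the 12 libraries, which share the 4 groups and their depth, the patterns of the members were compared by Pearson's r of TMM-scaled log2 counts as a description. *Tgfbr2* ran with *Skil* (r = 0.935), *Smad7* (0.920) and *Tgfbr1* (0.886), and *Skil* with *Smad7* (0.882). *Tgfb3* ran opposite to *Tgfbr2* (-0.891) and *Tgfbr3* opposite to *Skil* (-0.823). Among 12213 genes with a mean FPKM of at least 1, the patterns most like *Tgfbr2* were *Ifi214* (0.995), *Etv3* (0.989) and *Ms4a4c* (0.988), and those most like *Skil* were *Nrp1* (0.995), *Phlpp1* (0.989) and *Tbc1d8b* (0.987). *Nrp1* is thus both a co-receptor of the wider pathway and the gene nearest to *Skil*, with 1.03, 1.17 and 2.07 FPKM with anti-CD3 alone and 9.65, 12.6 and 13.3 with the combination. The FPKM limit was a mean over all 12 libraries, so genes low with anti-CD3 alone could enter through the groups where they are high. *Ifi214* averaged 0.11 FPKM with anti-CD3 alone and 9.32 with the combination. *Ms4a4c* and, among genes named below, *Fes*, *Peg13* and LOC115487367 also averaged under 1 FPKM with anti-CD3 alone.

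For *Smad7* the nearest genes were *Fgd3* (0.990), *Fes* (0.983) and *Peg13* (0.981). For *Tgfbr1* they were *Slc37a3* (0.976), LOC115487367 (0.974) and LOC105244034 (0.973). For *Tgfbr3* they were *Dcaf1* (0.975), *Cyp11a1* (0.971) and *Gm40150* (0.970), and *Cyp11a1*, the enzyme that starts steroid synthesis, had 26.8, 14.8 and 18.3 FPKM with anti-CD3 alone and 4.12, 4.53 and 4.99 with the combination. *Tgfb3* was nearest to *Myh10* (0.954), *Zfp330* (0.951) and *Gas5* (0.950), and among the genes nearest to *Smad2* were *Cbfb* (0.956) and *Vps50* (0.936).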

How the data were processed

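The 12 libraries were grouped by the treatment and replicate number in their labels. The read counts per gene were deposited by the authors as whole numbers without normalization, and the sources used here do not say whether they are reads counted 1 by 1 or rounded estimates. Levels are the deposited FPKM values, which account for transcript length and library size. The deposited TPM values were not used. The submitters' processing notes name bcl2fastq 2.20.0, Trimmomatic, HISAT2 2.1.0 and StringTie 2.1.3b and the build mm10/GRCm38, with no further settings. Whether counting used strand is not given in the sources used here. The spans of *Smad3*, *Smad7*, *Tgfb2*, *Tgfbr1*, *Tgfbr2* and *Tgfbr3* each overlap an annotated RNA gene or pseudogene. Overlap was checked on whole gene spans and not on exons, so whether any reads are shared was not tested.

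In R 4.3.3, edgeR 4.0.16 (quasi-likelihood test, TMM factors, 1 mean per group, 12 libraries) was fitted to the counts of all 23585 tested genes, and p-values were adjusted over all of them by Benjamini-Hochberg. A gene was called at an adjusted p under 0.05 and a change of at least 2-fold, the interaction without a fold cut-off. Each SE was obtained from the fold change (log2) and the F statistic. Alternatives were DESeq2 1.42.0, limma 3.58.1 on log2(FPKM + 1) and log2(FPKM + 0.1), no TMM factors, DESeq2 size factors, other filters on low counts, no fold cut-off, the 6 libraries compared, the replicate number as a block, each library left out and, added after seeing the data, replicate 1 left out in all groups. On simulated counts of 23431 genes for the combination against anti-CD3 alone, edgeR was scored on the adjusted p only, without the fold cut-off. It recovered 81 of 100 genes changed 2-fold and 100 of 100 changed 4-fold, and 12 other genes passed. Recovery with the 2-fold cut-off was not tested. These rates are therefore not those of the calls reported here.

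The members and lists were chosen with earlier results of these data known. All 10 members were named, with up to 4 genes per pathway list by size of change among those called in the combination against anti-CD3 alone with a mean FPKM of at least 1, and the 3 genes with the highest Pearson's r (log2 counts scaled by library size, TMM and prior count 2) to each called member. *Nedd4l*, *Cd109*, *Cdkn1a*, *Junb* and the library exceptions were added after their values were seen. Some genes that these rules name are not reported here. Promoter sequences and gene positions are those of RefSeq for GRCm38.p6. Plots were made in Python 3.11.15 with matplotlib 3.10.9.

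Same-numbered libraries deviated together (every correlation over 0.1) for *L. acidophilus* with anti-CD3 alone (0.471, 0.301 and 0.227) and with the combination (0.231, 0.240 and 0.142). For FK506 the correlations were uneven, at 0.512, 0.093 and 0.395 with *L. acidophilus* and 0.3, 0.0576 and 0.205 with the combination. With anti-CD3 alone they were 0.385, -0.123 and 0.0523 for FK506 and 0.0911, -0.0768 and 0.279 for the combination. The labels name no shared animal or batch.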

Additional observations from a re-analysis of the deposited data

Results flagged for a closer look

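*Smad2* was singled out because the change with *L. acidophilus* differed between cells without and with FK506. It was 0.31 on the log2 scale against anti-CD3 alone and -0.19 on top of FK506, and the difference was -0.50 (SE 0.13, adjusted p = 0.046 in edgeR). The 3 libraries with *L. acidophilus* (7.96 to 8.22 FPKM) were above the 3 with anti-CD3 alone (5.66 to 7.08), and those of the combination (7.34 to 8.57) overlapped those of FK506 (8.35 to 9.14). The call was lost in 16 of 21 alternatives, with an adjusted p of up to 0.15.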

How the results depend on the processing

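Of 1530 log2 fold changes of the 10 genes recomputed under alternatives, 1428 kept their direction and call, 24 newly passed the call, 35 lost it and 43 changed sign, none of which had been called. The cause of these differences was not tested, except that fewer libraries or genes enter some fits and that a pseudocount of 1 shrinks the change of genes below 1 FPKM. For *L. acidophilus* against anti-CD3 alone, 44 genes were called, and 439 with DESeq2, 84 with edgeR's expression filter, 83 with genes above 0 in 1 library, 11 with limma on log2(FPKM + 1) and 0 with the 6 libraries alone, where 2616 had an unadjusted p under 0.05. Signs turned there for *Tgfb3* (-0.003482 with DESeq2, -0.004811 with its size factors, -0.1258 with the replicate block), *Tgfb1* (0.03372 without TMM, 0.03576 and 0.03609 in limma with pseudocounts of 1 and 0.1) and *Tgfbr3* (0.04015, 0.03756 and 0.04067 in the same order). They also turned for *Tgfb2* with FK506 against anti-CD3 alone (-0.04131 and -0.1616 in limma), for *Tgfbr1* between the combination and FK506 (0.01637 without TMM, 0.007227 and 0.007508 in limma) and for *Smad2* between the combination and *L. acidophilus* (0.01452, 0.001695 and 0.001577). Without the fold cut-off, 4483 genes (5 of the 10) passed for FK506 and 10209 for the combination against anti-CD3 alone, 4508 (4 of the 10) for the combination against FK506, 7930 for the combination and 1774 for FK506 against *L. acidophilus*. limma on log2(FPKM + 1) called 967 (2 of the 10, *Tgfb3* being lost), 2318 (4 of the 10, *Tgfb3* and *Tgfbr3* being lost), 647 (0 of the 10), 1618 (3 of the 10) and 527 genes (1 of the 10) in these comparisons, and with a pseudocount of 0.1 it called 1 of the 10 for FK506 against *L. acidophilus*. DESeq2, no TMM factors, DESeq2 size factors in edgeR and limma with a pseudocount of 0.1 each called 1 of the 10, *Smad7*, between the combination and FK506. In the combination against anti-CD3 alone, 68.5% of the called genes were rises when TMM factors were left out, against 56.2% with them. For the interaction, DESeq2 called 2379 genes (3 of the 10), edgeR's expression filter 2 of the 10, and no TMM factors, DESeq2 size factors, genes above 0 in 1 library and limma with either pseudocount 0 of the 10, limma with a pseudocount of 1 calling 1675 genes.

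With the replicate number as a block no call of the 10 genes changed between groups, 69 genes were called for *L. acidophilus* against anti-CD3 alone, and for the interaction 1578 in place of 1025 genes and 3 of the 10 were called. Leaving out single libraries or replicate 1 gave 1 to 169 genes for *L. acidophilus* against anti-CD3 alone, 1666 to 2558 for FK506 and 4776 to 5827 for the combination against it, 979 to 1913 for the combination against FK506, 3226 to 4052 and 671 to 1469 for the combination and FK506 against *L. acidophilus*, and 332 to 1464 for the interaction. Signs turned within these ranges for *Tgfb1* (-0.1178 to 0.0166), *Tgfb2* (-0.1364 to 0.4579), *Tgfb3* (-0.4185 to 0.7224), *Tgfbr2* (-0.0008683 to 0.215), *Tgfbr3* (-0.2124 to 0.1112), *Smad3* (-0.4796 to 0.2133) and *Smad7* (-0.239 to 0.1645) with *L. acidophilus* against anti-CD3 alone, *Tgfb2* with FK506 (-0.2276 to 0.2706) and *Smad3* with the combination (-0.2294 to 0.3917) against anti-CD3 alone, *Tgfbr1* between the combination and FK506 (-0.1745 to 0.02842) and *Tgfbr3* between FK506 and *L. acidophilus* (-0.2965 to 0.1009). *Tgfb2* (24 to 89 counts per library) and *Tgfb3* (28 to 297) had the fewest counts and the largest standard errors of the 10 genes, those of *Tgfb3* being the larger.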
